A study of Mus musculus with 16 samples.

Results

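The lysosomal genes described here are 32 entries, of 15871 in the count table, picked by gene symbol. They hold 13 hydrolases, 7 lysosomal membrane proteins, 2 sphingolipid activator proteins, 6 parts of the proton pump V-ATPase, the 3 transcription factors Tfeb, Tfe3 and Mitf, and the autophagy receptor Sqstm1. Cathepsins are not among them. RNA was sequenced from cultured peritoneal macrophages of wild-type C57BL/6 mice aged 8 weeks, drawn to the peritoneum with 6% soluble starch, in 16 samples, 4 in each of 4 groups. All groups were grown in DMEM, and treatment lasted 48 h. The group L_C had low glucose without oxidised low-density lipoprotein (ox-LDL), and its label gives 27.5 mM mannitol, a sugar alcohol used as an osmotic control. L_O had low glucose with ox-LDL. H_C had 33 mmol/L glucose without ox-LDL, and H_O had 33 mmol/L glucose with ox-LDL. The ox-LDL concentration is written in the labels as 50 mg/ml, a unit that could not be checked here. Mannitol is not named in the label of L_O, so the presence of ox-LDL and the absence of mannitol cannot be told apart in L_O against L_C. H_O against L_O thus has no named osmotic control, and the test of a difference between the glucose levels carries the same uncertainty. The labels do not say whether replicates came from separate mice or cultures, so a p-value reflects how much these samples scattered, which may be technical only.

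Lysosomes are acidic organelles in which hydrolases break down material taken up by endocytosis, phagocytosis and autophagy. Their acidity comes from the V-ATPase, which has a membrane-embedded V0 sector that carries protons and a cytosolic V1 sector that splits ATP. Macrophages that take up modified lipoproteins break down the cholesteryl esters in lysosomes and store excess lipid as droplets, which gives foam cells. Tfeb, Tfe3 and Mitf belong to 1 family of transcription factors that bind the DNA letters CACGTG and close variants near many lysosomal genes.

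Library totals ran from 32596640 to 41712885 counts, and the members had between 1471 and 1223851 counts per library, so all 32 passed the filter on low counts. Levels are given as CPM, counts per 1e6 counts of the TMM-scaled library total. All 6 macrophage markers were detected in every library and summed to 17060 to 20561 CPM, most of it Lyz2 (group means of 14097 to 15890 CPM). Single markers moved with ox-LDL within that sum. Csf1r fell at both glucose levels (-0.49 and -0.46 on the log2 scale) and Itgam rose at both (0.34 and 0.72), and in high glucose Adgre1 (0.26) and Lyz2 (0.11) rose. Summed markers of B cells stayed at or below 2.36 CPM, those of T and NK cells at or below 4.50 CPM and those of neutrophils at or below 6.00 CPM. L_C replicate 4 stood apart. Its mitochondrial share of counts was 3.71%, where L_C replicates 1 to 3 had 1.48 to 1.95%. For 30 of the 32 members its level lay outside the range of those 3 libraries, above it for 14 and below it for 16. Calls of the members and counts of the other gene lists against L_C are therefore also given without it, while values of single genes outside the 32 are given with all libraries. In such bulk samples, fewer cells of a type and less RNA per cell cannot be told apart.

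Exons of 5 members share more than 4% of their 50-base stretches with other annotated genes, most of them on the opposite strand. These were Sqstm1 (15.5%, mainly Mrnip), Hexa (10.6%, mainly Tmem202), Cln3 (6.49%, mainly Apobr), Lamp1 (5.90%, mainly Grtp1) and Glb1 (4.26%, mainly Tmppe). The strand setting of the counting is not given in the sources used here, so reads of such stretches cannot be assigned to 1 of the pair with certainty.

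Psap, the precursor of the saposins that present sphingolipids to hydrolases, had a mean of 8255 CPM per kilobase of exon over the 16 libraries, rank 3 among 12498 genes with a length. Gpnmb, a transmembrane glycoprotein of endosomes and lysosomes that is abundant in lipid-laden macrophages, followed at 3403 CPM per kilobase (rank 9), and Lamp1, a main glycoprotein of the lysosomal membrane, at 1482 (rank 20). Hexa, the alpha subunit of beta-hexosaminidase, stood at 619 CPM per kilobase (rank 48) and Atp6v0d2, an isoform of the V0 d subunit with high levels in macrophages and osteoclasts, at 330 (rank 84). The other form of that subunit, Atp6v0d1, which is present in most cell types, had 132 CPM per kilobase. The transcription factors came last among the 32, with Tfe3 at 13.1, Mitf at 12.6 and Tfeb at 12.4 CPM per kilobase (rank 3298). Together the 32 genes took 6.36 to 6.94% of all counts in the libraries without ox-LDL and 5.56 to 5.84% in those with ox-LDL. Gpnmb alone took 2.25 to 2.93% in the former and 1.83 to 2.03% in the latter.

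**Figure D1:**
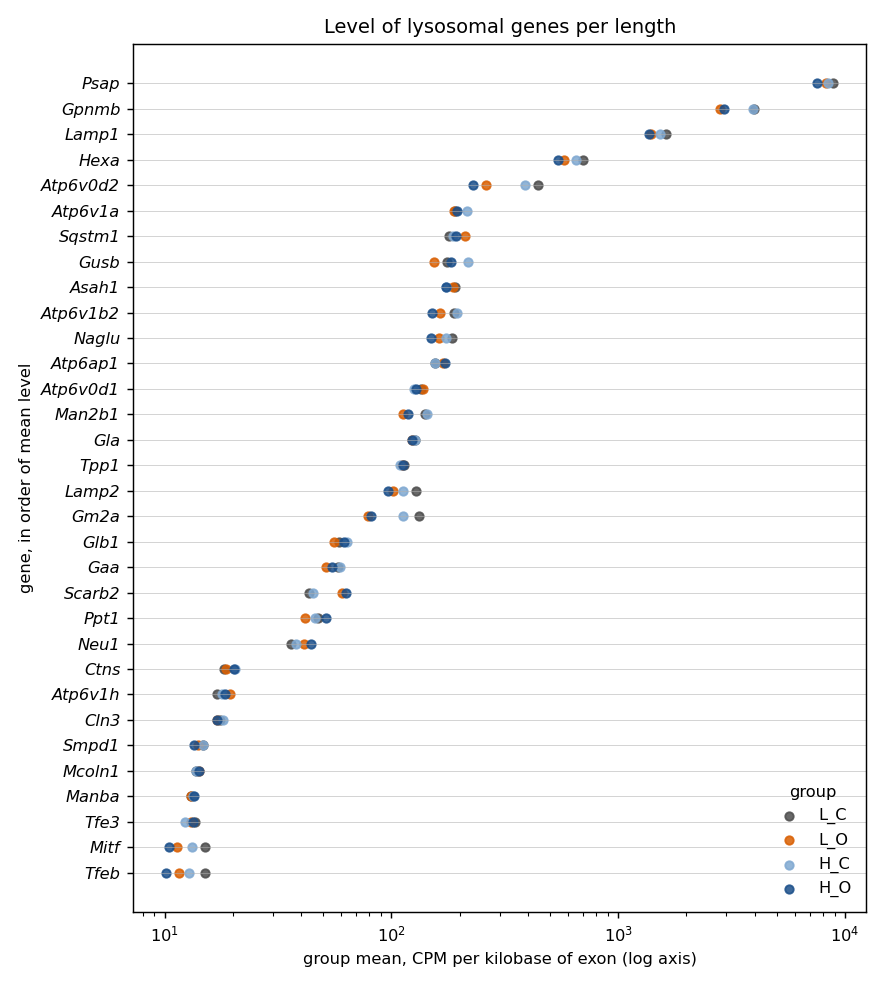
Mean level of each lysosomal gene in each group, in CPM per kilobase of exon on a log axis, with genes ordered by their mean over all groups and one point per group. Psap and Gpnmb stand above all others, at group means of 7543 to 8866 and 2800 to 3953, and Tfeb, Mitf and Tfe3 are among the lowest.

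Promoter sequences were looked at because Tfeb and its relatives are among the members. RefSeq promoters (build GRCm38.p6, 250 bases before to 50 after each annotated start) were matched by symbol for 28 of the 32 members, all except Atp6v0d2, Atp6v1b2, Asah1 and Atp6v1h. The letters CACGTG, which read the same on both strands, were in the promoter of 9 of these 28 genes (32.1%), against 2187 of 27025 genes with such a promoter (8.09%) and 11.7% of the tested genes among them. The 9 were Lamp1, Mcoln1, Cln3, Atp6v0d1, Atp6v1a, Glb1, Naglu, Gaa and Gla. The longer TCACGTG, which contains CACGTG and was searched on either strand (reverse CACGTGA), was in the same 9 promoters, and in 4.29% of all genes. TCATGTG (reverse CACATGA) was in 4 of the 28 (14.3%), against 4.31% of all genes and 2.73% of the tested genes among them. A match is a description of the letters and does not show binding. Stretches upstream of the RefSeq start are printed for 5 of the 9 genes, from membrane proteins, hydrolases and the pump, with CACGTG in capitals. They show 4 copies close together before the start of Lamp1 and a single copy in the stretches of the others. The Mcoln1 promoter holds 2 copies, and the one nearer the start lies outside its printed stretch. The Atp6v1a stretch is upstream of a RefSeq start but inside the gene span of the mm10 gene annotation (chr16:44085402-44139705). The Cln3 promoter (chr7:126583187-126583486) also lies inside its annotated gene span (chr7:126571207-126585817). The Mcoln1 stretch is chr8:3500411-3500456 (+ strand), that of Lamp1 chr8:13159063-13159160 (+), that of Glb1 chr9:114400993-114401072 (+), that of Gaa chr11:119267786-119267865 (+) and that of Atp6v1a chr16:44139348-44139427 (− strand, printed as read on that strand).
Mcoln1: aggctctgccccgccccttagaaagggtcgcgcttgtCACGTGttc
Lamp1: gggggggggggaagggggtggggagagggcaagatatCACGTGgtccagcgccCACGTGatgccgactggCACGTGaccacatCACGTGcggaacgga
Glb1: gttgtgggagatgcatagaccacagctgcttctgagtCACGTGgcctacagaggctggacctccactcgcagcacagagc
Gaa: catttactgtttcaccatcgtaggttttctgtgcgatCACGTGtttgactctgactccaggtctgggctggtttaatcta
Atp6v1a: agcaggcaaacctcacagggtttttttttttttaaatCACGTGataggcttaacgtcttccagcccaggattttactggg

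The comparisons of L_O with L_C and of H_O with H_C asked what ox-LDL changed at each glucose level. In both, the transcripts of the d2 pump subunit, the GM2 activator, Gpnmb, Lamp1, Lamp2, several hydrolases and 2 of the 3 transcription factors were lower with ox-LDL, while Scarb2 and Neu1 were higher. In low glucose 3 of the 32 members rose and 15 fell, where 12% of the 13527 tested entries rose and 13.8% fell. In high glucose 3 rose and 14 fell, where 10.4% of all tested entries rose and 11.5% fell. Calls are at an adjusted p of 0.05 in edgeR's quasi-likelihood test. The shares of members that fell (46.9% and 43.8%) were thus above those of all entries, and the shares that rose (9.38% in each) were near them. All members lay within the first 3298 of 12498 genes by level, and small changes are easier to call at high counts. The part of this difference in level in the shares was not tested. The median log2 fold change of the members was -0.07 in low and -0.10 in high glucose, and that over all tested entries was 0.00092 and 0.0089. When libraries were scaled by their totals alone, 6 members were higher and 9 lower in low glucose, and 5 were higher and 11 lower in high glucose. All tested entries were then called higher in 21.1% and lower in 10.3% of cases in low glucose, and in 16.1% and 8.62% in high glucose, so the share of members called higher (18.8% in low glucose) was near that of all entries here too. Without L_C replicate 4, 6 members rose and 15 fell in low glucose, where 13.8% of 13734 tested entries rose and 14.5% fell. Of the 18 calls with all libraries, 17 were kept, that of Ppt1 was lost, and Mcoln1, Tpp1 and Atp6ap1 (higher) and Atp6v1a (lower) were added. Members with values not given elsewhere were then at -0.27 for Lamp2, 0.44 for Scarb2, -0.29 for Hexa, -0.33 for Man2b1, 0.19 for Neu1, -0.26 for Naglu, -0.12 for Psap, -0.41 for Tfeb and -0.37 for Mitf.

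The 2 ox-LDL comparisons share no samples. They had 13 members lower in both, which is 86.7% of the 15 in low glucose and 92.9% of the 14 in high glucose, and 2 higher in both (66.7% of each 3). Over all tested entries 1207 were lower in both (64.6% of those in low and 77.6% of those in high glucose, 8.92% of all) and 961 higher in both (59.2% and 68.3%, 7.10% of all). The 13 were Atp6v0d2, Atp6v1b2, Gm2a, Psap, Gpnmb, Lamp1, Lamp2, Hexa, Man2b1, Gusb, Naglu, Tfeb and Mitf. The 2 were Scarb2 and Neu1. Gaa and Ppt1 (lower) and Sqstm1 (higher) passed the test in low glucose, and Atp6v1a (lower) and Atp6ap1 (higher) in high glucose; none of these 5 passed the test of a difference between the glucose levels. The remaining 12 passed in neither: Asah1, Atp6v0d1, Atp6v1h, Cln3, Ctns, Gla, Glb1, Manba, Mcoln1, Smpd1, Tfe3 and Tpp1. Of the 9 genes with CACGTG in the promoter, 3 fell and none rose in each comparison. Of the 19 without it, 10 fell and 3 rose in low glucose and 9 fell and 3 rose in high glucose. Over all tested entries 13.8% fell and 12% rose in low glucose, and 11.5% fell and 10.4% rose in high glucose.

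**Figure D2:**
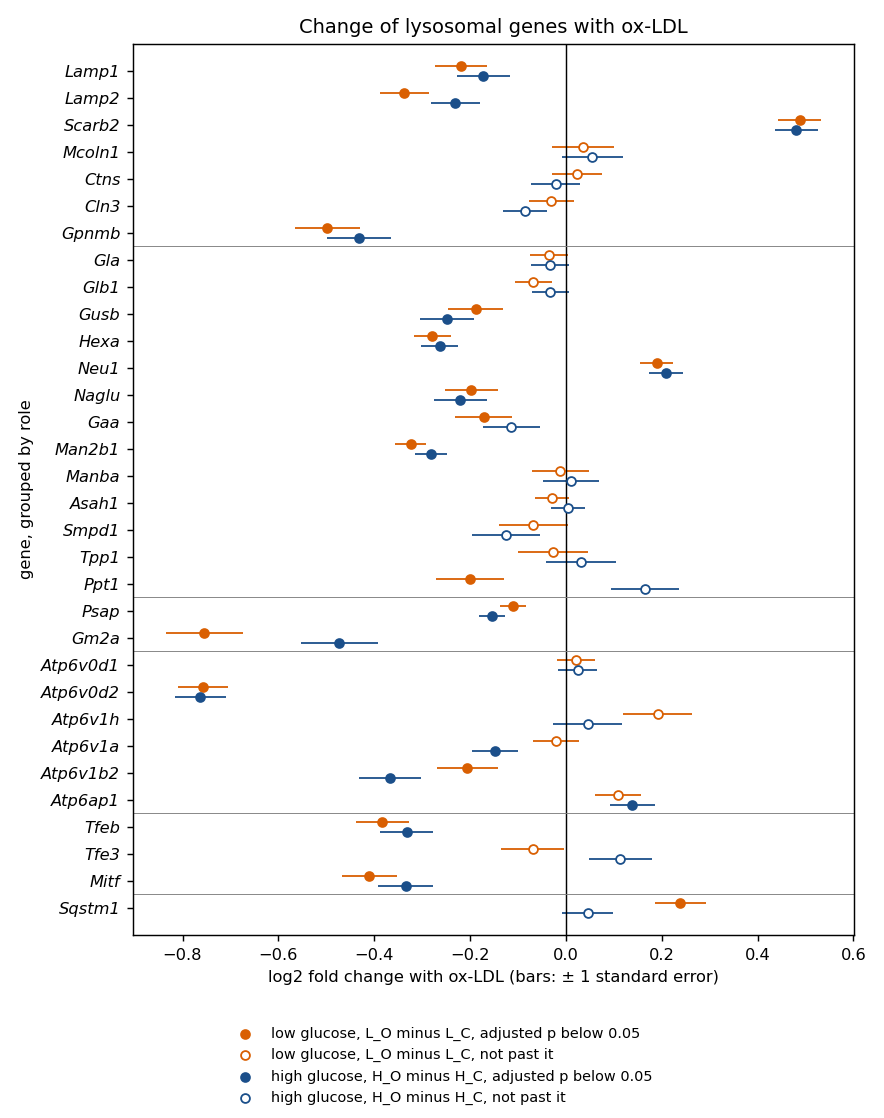
Log2 fold change with ox-LDL of each lysosomal gene, grouped by role, in low glucose (orange) and high glucose (blue), with bars of ± 1 standard error and filled points at an adjusted p below 0.05. Atp6v0d2 lies at -0.76 in both, Gm2a at -0.75 and -0.47, and Scarb2 at 0.49 and 0.48.

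Summed markers of 2 macrophage subsets were lower in the libraries with ox-LDL. The summed level of 6 markers of large peritoneal macrophages was 197 to 241 CPM in L_C and 101 to 109 CPM in L_O, and 191 to 211 CPM in H_C and 95.2 to 102 CPM in H_O. F10 made up most of this sum, with group means of 169 CPM in L_C, 75.7 in L_O, 158 in H_C and 71.8 in H_O. Of the 6 markers, 4 fell in each ox-LDL comparison, and Gata6 and Icam2 were not called in high glucose. For small peritoneal macrophages and monocytes (5 markers, all 5 lower in low glucose and 3 in high glucose) the summed level was 983 to 1059 CPM in L_C, 477 to 520 in L_O, 757 to 790 in H_C and 362 to 402 in H_O. Most of that sum was Itgax (group means of 767, 380, 596 and 291 CPM in the same order) and Clec12a (243, 108, 166 and 83.3 CPM). Of 5 eosinophil markers only Siglecf, which alveolar macrophages also express, was at a level that could be tested. It fell by 2.07 on the log2 scale in each ox-LDL comparison, from a mean of 17.6 CPM in L_C to 4.20 in L_O. Ccr3 and Il5ra were each at 0 in 11 libraries, and Epx and Prg2 had no entry under these symbols in the count table. The 9 markers of mesothelial cells and fibroblasts summed to 62.0 to 87.4 CPM in L_C and 26.3 to 40.4 in L_O, with 1 of 9 called lower. In high glucose their sums overlapped, at 41.7 to 219.9 CPM in H_C and 38.9 to 112 in H_O, with none called. In H_C against L_C, 3 of 5 small and 2 of 6 large peritoneal macrophage markers fell, beside 7.75% of all tested entries. Adgre1 (-0.37) and Itgam (-0.36) fell there too, and Mertk (0.16) rose. In H_O against L_O, 2 of 5 and 1 of 6 fell, beside 3.39%, and Lyz2 (0.13) and Mertk (0.18) rose. No marker of these 2 subsets was called higher in either comparison. The part of these other cells and cell states in the changes of lysosomal genes was not tested.

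Among the pump genes, Atp6v0d2 (ENSMUSG00000028238.6, chr4:19876841-19922605, minus strand, mm10) had the lowest p of all members in both ox-LDL comparisons. It was at 1177, 1143, 1148 and 1325 CPM in L_C replicates 1 to 4, at 701, 726, 713 and 694 in L_O, at 1061, 1067, 1035 and 1068 in H_C, and at 658, 568, 603 and 663 in H_O. Every library with ox-LDL lay below every library without it. The mean fell by 40.9% in low glucose (log2 fold change -0.76 ± 0.053 SE, adjusted p 5.14e-09) and by 41.1% in high glucose (-0.76 ± 0.053, adjusted p 5.43e-09). The change was -0.71 in low glucose without L_C replicate 4. Its counterpart Atp6v0d1 passed neither test and was at a mean of 243 ± 11.3 CPM (SD, n = 4) in L_C, 246 ± 3.28 in L_O, 225 ± 5.81 in H_C and 229 ± 7.40 in H_O.

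In the V1 sector, Atp6v1b2, the B subunit that forms the ATP-binding ring together with the A subunit, went from 1002 ± 118 CPM in L_C to 869 ± 12.5 in L_O and from 1031 ± 21.0 in H_C to 799 ± 42.3 in H_O. The log2 fold change was -0.21 ± 0.064 (adjusted p 0.0233) in low and -0.37 ± 0.064 (adjusted p 0.00032) in high glucose. L_C replicate 4, at 827 CPM, lay below the L_O libraries, and without it the low glucose value was -0.29 (adjusted p 1.96e-06). Leaving out L_C replicate 1, 2 or 3 or L_O replicate 4 put the adjusted p of Atp6v1b2 in low glucose between 0.0616 and 0.0785, and with no scaling its value was -0.12 (adjusted p 0.201). Atp6v1a, the catalytic A subunit, fell in high glucose from 1301 ± 25.8 to 1174 ± 17.5 CPM (-0.15 ± 0.048, adjusted p 0.0313), and in low glucose was at 1158 ± 98.3 CPM in L_C and 1141 ± 16.8 in L_O (not called). The call in high glucose was lost on leaving out any of H_C replicates 1, 2 and 4 or of the 4 H_O libraries, with adjusted p of 0.0538 to 0.0786, and with no scaling (-0.08, adjusted p 0.303). Atp6ap1, an accessory protein of the pump, rose in high glucose from 472 ± 2.48 to 519 ± 7.49 CPM (0.14 ± 0.048, adjusted p 0.0447), a call lost without any 1 of the 8 H_C and H_O libraries (adjusted p 0.0695 to 0.112). Its libraries with ox-LDL (512 to 530 CPM) lay above those without (469 to 474) in high glucose. Atp6v1h, the H subunit of V1, passed neither test, with group means of 165 to 189 CPM.

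Both activator proteins fell. Gm2a (ENSMUSG00000000594.7, chr11:55098115-55113029, plus strand) encodes the protein that lifts the ganglioside GM2 out of membranes for beta-hexosaminidase A. It was at 520, 495, 485 and 693 CPM in L_C, at 332, 333, 323 and 312 in L_O, at 464, 472, 464 and 459 in H_C, and at 325, 347, 344 and 325 in H_O. No library with ox-LDL reached the level of one without. The log2 fold change was -0.75 ± 0.081 in low glucose (adjusted p 1.17e-06), or -0.62 ± 0.034 without L_C replicate 4, and -0.47 ± 0.080 in high glucose (adjusted p 0.000249). Psap was at 24595, 24524, 24157 and 24038 CPM in L_C and at 22879, 22586, 22429 and 22254 in L_O. In H_C it was at 23103, 23437, 22774 and 22872 CPM and in H_O at 20467, 19960, 21508 and 20859. The libraries did not overlap in either comparison, and the falls were small, -0.11 ± 0.027 (adjusted p 0.00489) and -0.15 ± 0.027 (adjusted p 0.000306). With no scaling beyond library totals the low glucose value of Psap was -0.03 (adjusted p 0.525).

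Of the 7 membrane proteins, 3 fell (42.9%) and 1 rose (14.3%) in each ox-LDL comparison. All tested entries fell in 13.8% and rose in 12% of cases in low glucose, and in 11.5% and 10.4% in high glucose. Gpnmb was at 24620, 23252, 23639 and 31496 CPM in L_C, at 18001, 18680, 18203 and 18070 in L_O, at 26118, 25718, 25300 and 25510 in H_C, and at 19358, 18094, 19049 and 19600 in H_O. Its log2 fold change was -0.50 ± 0.067 (adjusted p 1.84e-05) in low glucose, -0.39 ± 0.025 without L_C replicate 4, and -0.43 ± 0.067 (adjusted p 9.62e-05) in high glucose. Lamp2, the second main glycoprotein of the lysosomal membrane, was at 1148, 1186, 1176 and 1392 CPM in L_C, at 1013, 957, 955 and 957 in L_O, at 1054, 1091, 1065 and 1106 in H_C, and at 935, 940, 877 and 926 in H_O. Its log2 fold changes were -0.34 ± 0.051 (adjusted p 6.54e-05) and -0.23 ± 0.051 (adjusted p 0.0027). Lamp1 changed by -0.22 ± 0.055 in low glucose (adjusted p 0.00584), or by -0.14 without L_C replicate 4 (5087 CPM against 4059 to 4170 in the other L_C libraries). In high glucose Lamp1 fell by 0.17 ± 0.055 (adjusted p 0.0299), and the adjusted p was 0.0539 to 0.0787 on leaving out H_C replicate 1 or 2 or H_O replicate 2, 3 or 4, and with no scaling its value was -0.11 (adjusted p 0.104).

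Scarb2, also known as LIMP-2, carries glucocerebrosidase to lysosomes, and it was the member with the largest rise in both ox-LDL comparisons. It was at 275, 290, 278 and 244 CPM in L_C, at 379, 380, 382 and 385 in L_O, at 285, 285, 276 and 290 in H_C, and at 403, 406, 391 and 386 in H_O. Libraries with and without ox-LDL did not overlap. The mean rose by 40.2% in low glucose (0.49 ± 0.045, adjusted p 1.96e-07) and by 39.5% in high glucose (0.48 ± 0.045, adjusted p 2.49e-07). The calcium channel Mcoln1, the cystine exporter Ctns and the Batten disease protein Cln3 passed neither test. Their group means were 104 to 107 CPM, 62.2 to 69.4 CPM and 98.7 to 105 CPM.

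**Figure D3:**
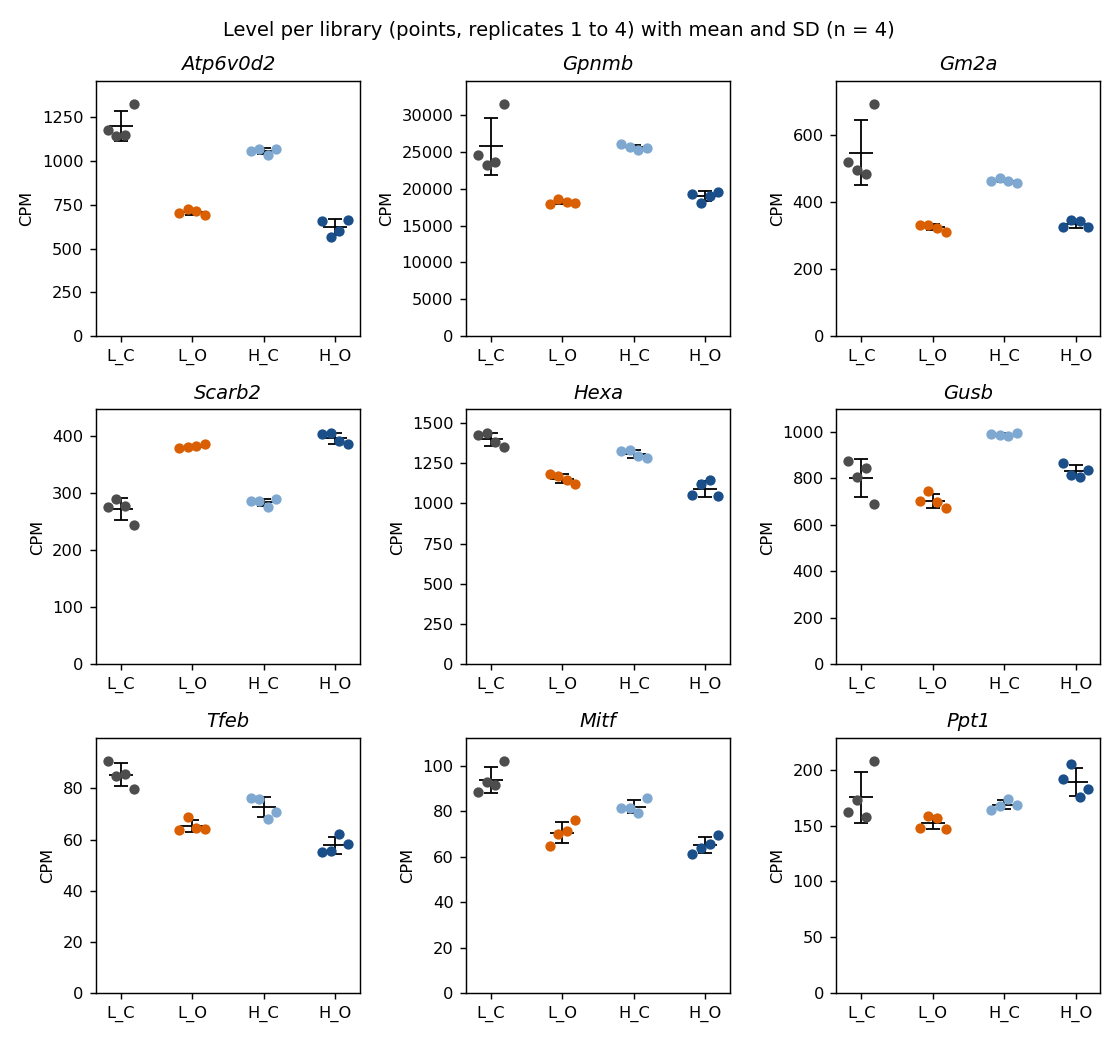
Level in CPM of 9 lysosomal genes in each library (points, replicates 1 to 4 from left to right), with the mean and SD of the 4 libraries of a group (black), on axes that start at 0. Libraries with ox-LDL lie below those without for Atp6v0d2, Gpnmb and Gm2a and above them for Scarb2. Group means of Ppt1 were 175, 153, 169 and 189 CPM in L_C, L_O, H_C and H_O.

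The hydrolases were mixed. In low glucose 6 of 13 fell (46.2%) and 1 rose (7.69%), beside 13.8% and 12% of all tested entries. In high glucose 4 fell (30.8%) and 1 rose (7.69%), beside 11.5% and 10.4%. Hexa was at 1350 to 1438 CPM in L_C, 1116 to 1180 in L_O, 1280 to 1331 in H_C and 1043 to 1141 in H_O. Its log2 fold change was -0.28 ± 0.038 (adjusted p 2.02e-05) in low and -0.26 ± 0.038 (adjusted p 4.3e-05) in high glucose. Man2b1, the lysosomal alpha-mannosidase, was at 1156, 1130, 1122 and 1115 CPM in L_C, at 924, 910, 892 and 888 in L_O, at 1189, 1155, 1125 and 1150 in H_C, and at 984, 929, 951 and 934 in H_O. Its log2 fold change was -0.32 ± 0.033 (adjusted p 6.92e-07) in low and -0.28 ± 0.033 (adjusted p 3.96e-06) in high glucose. For both enzymes all libraries with ox-LDL were below all those without it at the same glucose level. Neu1, the lysosomal sialidase, rose from 135 ± 1.23 to 154 ± 2.20 CPM (SD, n = 4) in low glucose and from 142 ± 1.75 to 164 ± 5.26 CPM in high glucose. These are log2 fold changes of 0.19 ± 0.035 (adjusted p 0.000502) and 0.21 ± 0.035 (adjusted p 0.000224).

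Smaller falls were seen for 2 further enzymes at both glucose levels. Naglu, which acts in the breakdown of heparan sulfate, changed by -0.20 ± 0.055 (adjusted p 0.0124) and -0.22 ± 0.055 (adjusted p 0.00687). Gusb, the beta-glucuronidase, changed by -0.19 ± 0.057 (adjusted p 0.0201) and -0.25 ± 0.057 (adjusted p 0.00367). In L_C replicate 4, Gusb (688 CPM) lay within the range of the L_O libraries (674 to 746), and its low glucose value was -0.26 without that library. The low glucose call of Gusb was lost without L_C replicate 1 or 3 or L_O replicate 3 or 4, at adjusted p of 0.0515 to 0.0752. Gaa, which breaks down glycogen, fell in low glucose from 277 ± 33.0 to 246 ± 3.36 CPM (-0.17 ± 0.059, adjusted p 0.0395). Without L_C replicate 4 (326 CPM) the change of Gaa was -0.08 (adjusted p 0.048), and without any 1 of the 4 L_O libraries its adjusted p was 0.0641 to 0.0909. Ppt1, a thioesterase that removes palmitate from proteins, fell in low glucose by 0.20 ± 0.070 (adjusted p 0.0438). That call was lost without L_C replicate 4 (-0.11, adjusted p 0.108), without L_C replicate 2 (adjusted p 0.066) and without any 1 of the 4 L_O libraries (adjusted p 0.0563 to 0.11). When libraries were scaled by their totals alone, Naglu passed in neither comparison (-0.12, adjusted p 0.167, and -0.16, adjusted p 0.0723). In low glucose Gusb (-0.11, adjusted p 0.226), Gaa (-0.08, adjusted p 0.231) and Ppt1 (-0.11, adjusted p 0.206) did not pass either. A fit of only the 8 L_O and L_C libraries called none of Naglu, Gusb, Gaa, Ppt1 and Atp6v1b2 (adjusted p 0.0676 to 0.126).

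The 6 hydrolases that passed neither ox-LDL test had group means that ranged, over the 4 groups, from 404 to 414 CPM for Gla (alpha-galactosidase A), 169 to 191 for Glb1 (beta-galactosidase), 90.8 to 94.1 for Manba (beta-mannosidase), 588 to 648 for Asah1 (acid ceramidase), 45.1 to 49.3 for Smpd1 (acid sphingomyelinase) and 566 to 586 for Tpp1 (a tripeptidyl peptidase). Tpp1 was at 531 to 541 CPM in 3 L_C libraries and at 733 CPM in L_C replicate 4. Without that library it was higher with ox-LDL in low glucose (0.10 ± 0.024, adjusted p 0.00381).

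Tfeb and Mitf fell with ox-LDL at both glucose levels. Tfeb was at 90.7, 84.8, 85.8 and 79.7 CPM in L_C, at 63.9, 69.0, 64.5 and 64.0 in L_O, at 76.1, 75.9, 68.1 and 70.7 in H_C, and at 55.2, 55.4, 62.3 and 58.1 in H_O. Its log2 fold change was -0.38 ± 0.055 (adjusted p 3.86e-05) in low and -0.33 ± 0.056 (adjusted p 0.000212) in high glucose. Mitf was at 88.7, 92.7, 91.7 and 102 CPM in L_C, at 64.9, 70.1, 71.2 and 76.1 in L_O, at 81.6, 81.6, 79.2 and 86.0 in H_C, and at 61.2, 63.8, 65.8 and 69.5 in H_O. Its log2 fold change was -0.41 ± 0.058 (adjusted p 2.81e-05) in low and -0.33 ± 0.058 (adjusted p 0.00029) in high glucose. For both factors the libraries with and without ox-LDL did not overlap at either glucose level. Tfe3 passed neither test, at 114 to 121 CPM in 3 L_C libraries, 152 CPM in L_C replicate 4, 120 to 121 in L_O, 111 to 118 in H_C and 118 to 129 in H_O. Sqstm1, also known as p62, which brings ubiquitin-tagged cargo to autophagosomes, rose in low glucose from 601 ± 57.2 to 710 ± 20.1 CPM (0.24 ± 0.054, adjusted p 0.00258). Without L_C replicate 4 (517 CPM) the rise was 0.17 (adjusted p 0.00016). In high glucose Sqstm1 was at 630 ± 8.77 and 650 ± 18.9 CPM (not called). These values are RNA levels, and the activity of the factors or the flux of autophagy was not measured.

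**Figure D4:**
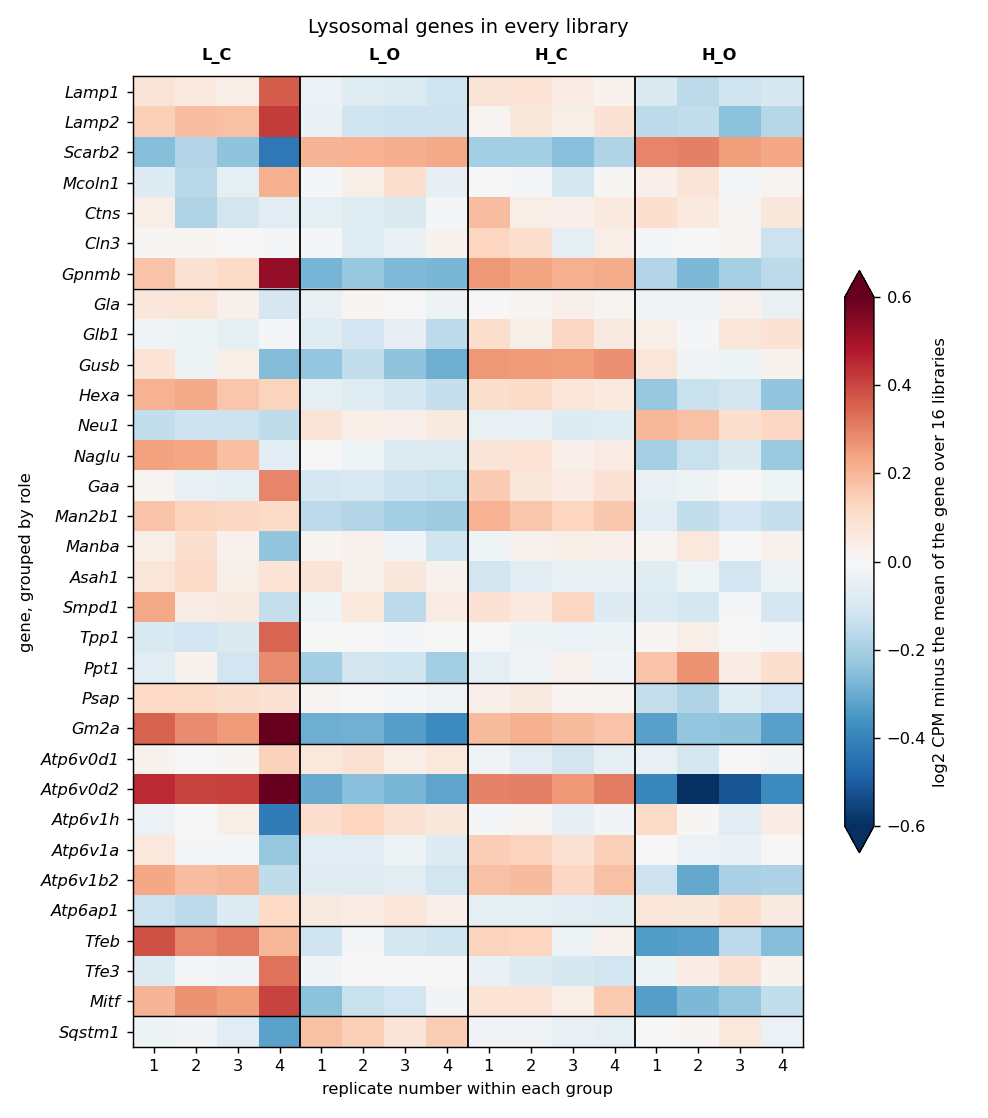
Log2 CPM of each lysosomal gene in each of the 16 libraries, minus the mean of that gene over all libraries, with genes in rows grouped by role and libraries in columns by group. Rows such as Atp6v0d2, Gm2a and Gpnmb are red without and blue with ox-LDL, Scarb2 shows the opposite, and L_C replicate 4 differs from the other L_C libraries in many rows.

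The comparison of H_C with L_C asked what high glucose changed without ox-LDL, with mannitol in L_C. Gusb and Atp6v1a rose, and Tfeb, Mitf, Lamp2, Atp6v0d2 and Asah1 fell. These 2 of 32 higher and 5 of 32 lower stand beside 5.02% and 7.75% of all tested entries. Gusb was at 873, 807, 845 and 688 CPM in L_C and at 989, 985, 982 and 997 in H_C (0.30 ± 0.057, adjusted p 0.00187), with every H_C library above every L_C library. The ranges of Atp6v1a were 1016 to 1244 CPM in L_C and 1264 to 1321 in H_C (0.17 ± 0.048, adjusted p 0.0248). Tfeb changed by -0.23 ± 0.055 (adjusted p 0.00966), Mitf by -0.19 ± 0.057 (adjusted p 0.0335), Lamp2 by -0.18 ± 0.051 (adjusted p 0.0234), Atp6v0d2 by -0.18 ± 0.052 (adjusted p 0.0295) and Asah1 by -0.14 ± 0.035 (adjusted p 0.0124). This comparison and that of L_O with L_C share the L_C libraries. The median log2 fold change was -0.0045 for the members and -0.0045 for all tested entries.

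The calls against L_C depended on L_C replicate 4 and on single H_C libraries. Without L_C replicate 4, 7 members were higher and 8 lower in H_C, beside 6.71% and 9.21% of all tested entries. Gusb (0.23) and Atp6v1a (0.11) stayed higher and Tfeb (-0.26), Lamp2 (-0.12), Atp6v0d2 (-0.13) and Asah1 (-0.14) stayed lower, while Mitf was at -0.15 (adjusted p 0.0581). Glb1 (0.12), Gaa (0.12), Ctns (0.16), Tpp1 (0.08) and Gpnmb (0.11) were then called higher, and Hexa (-0.11), Naglu (-0.16), Psap (-0.08) and Gm2a (-0.11) lower. With that library, Gm2a was at -0.24 ± 0.080 and Ctns at 0.16 (adjusted p 0.0595 and 0.0524). A fit of only the 8 L_C and H_C libraries called 1 member. Leaving out a single H_C library left 3 calls without replicate 1, 4 without replicate 2 and 4 without replicate 3. Atp6v0d2 lost its call without any of the 4 H_C libraries (adjusted p 0.0581 to 0.0884), Atp6v1a without H_C replicate 1, 2 or 4 (0.0576 to 0.0695), Lamp2 without H_C replicate 1 or 3 (0.0712 and 0.0695), Tfeb without H_C replicate 3 (0.057), and Mitf without L_C replicate 2 or H_C replicate 1, 2 or 3 (0.0515 to 0.109). Gusb and Asah1 were called without any single L_C or H_C library. With no scaling, Asah1 (-0.11, adjusted p 0.0672), Mitf (-0.16, adjusted p 0.0697) and Atp6v0d2 (-0.14, adjusted p 0.0531) did not pass.

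**Figure D5:**
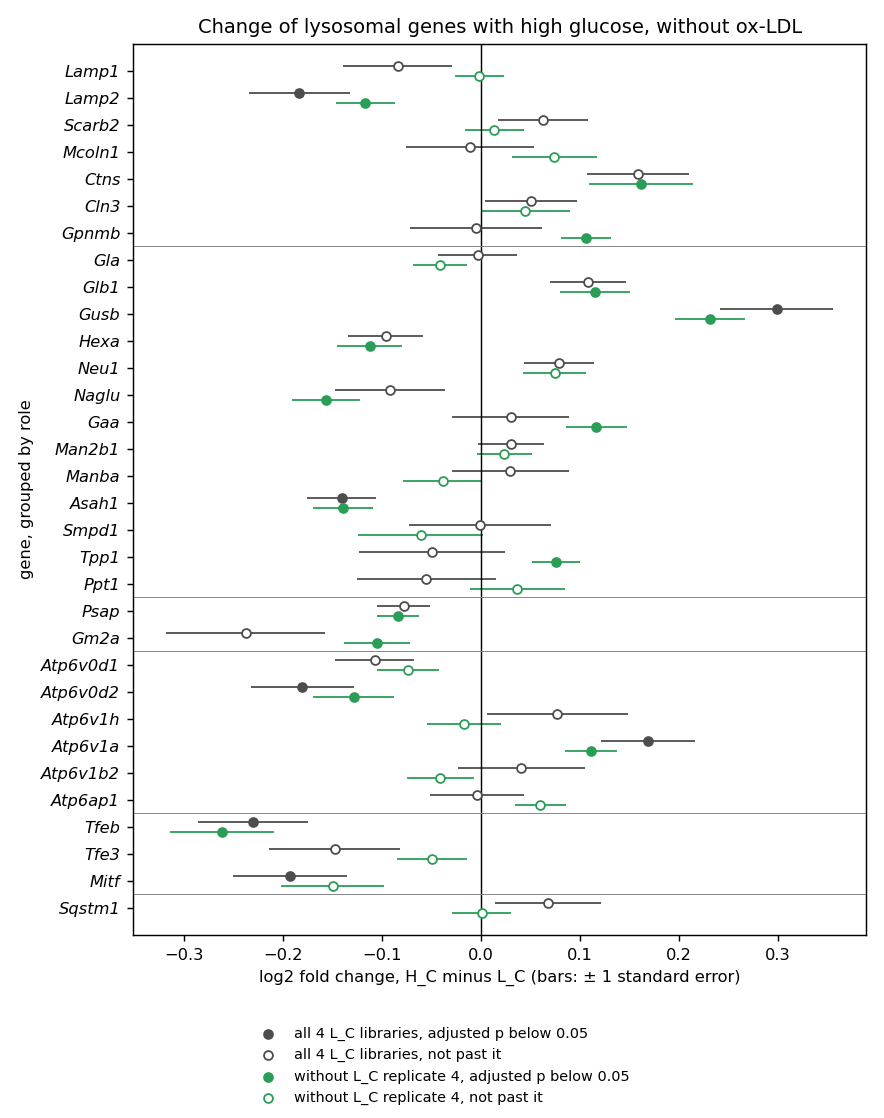
Log2 fold change of each lysosomal gene in H_C against L_C, with all 4 L_C libraries (grey) and without L_C replicate 4 (green), with bars of ± 1 standard error and filled points at an adjusted p below 0.05. There are 7 filled points with all libraries and 15 without L_C replicate 4, and Gusb has the highest value in both, 0.30 and 0.23.

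With ox-LDL present, H_O against L_O had 3 members higher and 2 lower, beside 2.71% and 3.39% of all tested entries. Mannitol is named for neither group, so glucose itself and its osmotic effect cannot be told apart in this comparison. Ppt1 was at 148, 158, 157 and 147 CPM in L_O and at 192, 206, 176 and 183 in H_O, with no overlap (0.31 ± 0.070, adjusted p 0.0123). Gusb was at 703, 746, 697 and 674 CPM in L_O and at 868, 815, 807 and 838 in H_O (0.24 ± 0.057, adjusted p 0.0165). The call of Gusb was lost without L_O replicate 4 (adjusted p 0.0632) or H_O replicate 1 (0.0551). Glb1 rose by 0.14 ± 0.038 (adjusted p 0.0303), with L_O libraries at 162 to 175 CPM and H_O libraries at 180 to 192. Atp6v0d2 fell by 0.19 ± 0.052 (adjusted p 0.043), and Psap fell by 0.12 ± 0.027 (adjusted p 0.00973). Glb1 lost its call without L_O replicate 1, 2 or 4 or H_O replicate 1, 3 or 4 (adjusted p 0.0587 to 0.112), and Atp6v0d2 without any of the 4 L_O libraries or H_O replicate 2 or 3 (0.0738 to 0.139). Ppt1 and Psap were called without any single L_O or H_O library. The number of calls was 2 without L_O replicate 4 and 3 without L_O replicate 1 or 2 or H_O replicate 1. The medians were 0.0038 for the members and 0.0030 for all tested entries.

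Whether the change with ox-LDL differed between the glucose levels was tested as an interaction, H_O minus H_C less L_O minus L_C. The interaction also carries any mannitol difference between L_O and L_C. None of the 32 members passed in edgeR, DESeq2 or limma-voom, where edgeR called 0.00739% of all tested entries higher and 0.00739% lower, which is 1 of 13527 each. DESeq2 called 78 entries higher (0.577%) and 17 lower (0.126%), and limma-voom called 0. Without L_C replicate 4, edgeR called 41 entries higher (0.299%) and 12 lower (0.0874%), with 0 members among them. At an unadjusted p of 0.05, edgeR had 3 members, Ppt1 (0.36 ± 0.099, p 0.00179, adjusted p 0.207), Sqstm1 (-0.19 ± 0.076, adjusted p 0.458) and Gm2a (0.28 ± 0.113, adjusted p 0.478). For Ppt1 the group means were 175 ± 22.7 CPM in L_C, 153 ± 5.77 in L_O, 169 ± 3.93 in H_C and 189 ± 12.7 in H_O (SD, n = 4). Standard errors of the interaction ran from 0.038 for Psap to 0.113 for Gm2a on the log2 scale, which limits how small a difference could pass.

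Other genes of the same organelle were read from the same fits. Over all tested entries, 12% rose and 13.8% fell with ox-LDL in low glucose, and 10.4% rose and 11.5% fell in high glucose. In H_C against L_C 5.02% rose and 7.75% fell, and in H_O against L_O 2.71% rose and 3.39% fell. The counts of all the lists below are to be read beside these shares. In the smallest list, of 9 genes, 1 call is already 11.1%. Of 24 other lysosomal enzymes, 3 rose and 7 fell with ox-LDL in low glucose and 3 rose and 8 fell in high glucose. Acp5, the tartrate-resistant acid phosphatase, was at 50.2 ± 4.20 CPM in L_C, 21.8 ± 2.42 in L_O, 56.8 ± 3.55 in H_C and 25.3 ± 3.49 in H_O, with log2 fold changes of -1.20 and -1.17. Galc, which cleaves galactosylceramide, changed by -0.39 and -0.40. Hgsnat, an acetyltransferase of heparan sulfate breakdown, was higher in high glucose, by 0.41 ± 0.063 without (adjusted p 0.000345) and 0.65 ± 0.064 with ox-LDL (adjusted p 7.89e-06). In H_C against L_C 1 of the 24 rose and 9 fell (2 and 8 without L_C replicate 4), and in H_O against L_O 1 rose and 4 fell.

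Of 21 other lysosomal membrane proteins, 1 rose and 9 fell in low glucose and 1 rose and 8 fell in high glucose with ox-LDL. The metal transporter Slc11a1 was the one that rose in each (0.29 ± 0.039 and 0.38 ± 0.039). The chloride exchanger Clcn7 (-0.39 and -0.30), Laptm4a (-0.27 and -0.21) and the channel Tpcn2 (-0.20 and -0.36) were among those that fell. Of 14 other V-ATPase genes, 2 rose and 3 fell in low glucose and none rose and 3 fell in high glucose. Tcirg1, the a3 form of the V0 a subunit, fell in both (-0.29 ± 0.038 and -0.19 ± 0.038), as did Atp6v1e1 of the V1 stalk (-0.15 and -0.19). Atp6v0a1, the a1 form, was at 778 ± 82.3 CPM in L_C, 893 ± 10.6 in L_O, 594 ± 26.6 in H_C and 660 ± 62.4 in H_O. It rose with ox-LDL in low glucose (0.20 ± 0.070, adjusted p 0.0414) and was lower with high glucose both without (-0.39 ± 0.070, adjusted p 0.00113) and with ox-LDL (-0.44 ± 0.070, adjusted p 0.000845). Beside Atp6v0d2, then, 1 further V0 gene fell with ox-LDL at both glucose levels.

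The next 9 genes serve to sort new hydrolases to lysosomes, by the mannose 6-phosphate tag or, for Sort1, without it. Of these, 2 rose and 1 fell in each ox-LDL comparison. Sort1, the sorting receptor sortilin, was at 341 ± 14.0 CPM in L_C, 492 ± 9.03 in L_O, 340 ± 14.4 in H_C and 451 ± 22.3 in H_O (0.53 ± 0.045 and 0.41 ± 0.045), and the adaptor Gga2 rose by 0.41 and 0.27. Gnptab, a subunit of the enzyme that starts the mannose 6-phosphate tag, changed by -0.35 and -0.28 (both called), and the receptor Igf2r passed in neither. Of 16 genes of nutrient sensing at the lysosome, 2 rose and 3 fell in low glucose and 2 rose and 4 fell in high glucose. Tfec, a further relative of Tfeb, rose (0.54 ± 0.081 and 0.26 ± 0.081), while the folliculin partners Fnip1 (-0.35 and -0.40) and Fnip2 (-0.26 and -0.36) fell. Tfec was at 20.0 ± 1.82 CPM in L_C and 29.1 ± 1.05 in L_O. The directions of Tfeb and Mitf were thus opposite to that of Tfec in these libraries. Rragd, a GTPase that recruits mTORC1, was lower in high glucose without (-0.27 ± 0.056) and with ox-LDL (-0.35 ± 0.056).

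Of 18 autophagy genes, none rose and 8 fell in low glucose and 1 rose and 8 fell in high glucose with ox-LDL. The cargo receptors Optn (-0.67 ± 0.088 and -0.65 ± 0.089), Tax1bp1 (-0.34 and -0.40) and Calcoco1 (-0.58 and -0.43) fell in both, whereas Sqstm1 rose in low glucose. The Atg8-family gene Gabarapl1 fell too (-0.25 and -0.32). The median log2 fold changes in low and high glucose were -0.17 and -0.10 for the autophagy genes, -0.18 and -0.10 for the other membrane proteins, -0.08 and -0.07 for the other enzymes and -0.0025 and -0.0075 for the other V-ATPase genes. Without L_C replicate 4, the counts in low glucose were 6 higher and 9 lower for the other enzymes, 2 and 10 for the other membrane proteins, 2 and 4 for the other V-ATPase genes, 3 and 1 for sorting, 3 and 3 for nutrient sensing and 0 and 9 for autophagy. All tested entries then rose in 13.8% and fell in 14.5% of cases. Of the low glucose calls in these lists, that of Tmem192 alone was lost. The low glucose medians were then -0.10 for the other membrane proteins, -0.03 for the other enzymes and -0.12 for the autophagy genes. In H_C against L_C the counts with all libraries were 0 higher and 4 lower for the other membrane proteins, 0 and 4 for the other V-ATPase genes, 0 and 0 for sorting, 1 and 2 for nutrient sensing and 1 and 1 for autophagy. They were, without L_C replicate 4, 0 and 6, 0 and 5, 2 and 0, 0 and 3, and 2 and 1, in the same order. All tested entries were then higher in 6.71% and lower in 9.21% of cases.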

How the data were processed

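Peritoneal macrophage RNA was sequenced in 16 samples, 4 in each of 4 groups taken from the labels. The authors deposited a table of whole-number read counts per gene for these samples, with 15871 entries. Its columns were matched to samples by name. Per the submitters' processing notes, HISAT2, DESeq2 and the genome build mm10 are listed, with no versions or roles stated. Which counting tool, annotation and strand setting the authors used is not given in the sources used here.

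Counts were tested with edgeR 4.0.16 (R 4.3.3, limma 3.58.1) by the two-sided quasi-likelihood F test across all genes, with TMM factors, filterByExpr by group and a mean per group. One fit held all 16 libraries, with 12 residual degrees of freedom. Of the entries 13527 were tested and 2344 were not. Benjamini-Hochberg adjustment ran over all tested entries, and a gene was called at an adjusted p of 0.05. A standard error is the log2 fold change divided by the root of F. The fit was tested on simulated data. Levels are CPM on TMM-scaled library sizes, and levels per kilobase use exon lengths from the mm10 gene annotation. Library totals of 32596640 to 41712885 set the counting error.

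Alternatives were RLE, upper-quartile or no scaling, no filter, a filter of 1 CPM in 4 samples, DESeq2 1.42.0, limma-voom, a replicate block, fits of only the 8 libraries compared, and leaving out each library. Counts of the other lists without L_C replicate 4 were added after seeing the data. All members are named, and values in every sample are given by rule for those called with an absolute log2 fold change of at least 0.5 in a pairwise comparison (Atp6v0d2 and Gm2a). Further members with such values, and Atp6v1e1, were chosen after their values were seen. From each other list up to 4 genes with the smallest adjusted p are named. One gene that this rule selects is not reported here. The members and lists were chosen with earlier results of these data known.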

Additional observations from a re-analysis of the deposited data

Results flagged for a closer look

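Of 128 sets of 4 libraries (32 genes in 4 groups), 10 had a highest or lowest library set off from the other 3 by more than Dixon's 95% limit for 4 values, where chance gives about 1 in 20. L_C replicate 4 accounted for 7 of the 10. In it Lamp1 was at 5087 CPM (4059 to 4170 in the others), Lamp2 at 1392 CPM (1148 to 1186), Gm2a at 693 CPM (485 to 520), Tpp1 at 733 CPM (531 to 541), Tfe3 at 152 CPM (114 to 121) and Gpnmb at 31496 CPM (23252 to 24620). Atp6v1b2 was lower in it, at 827 CPM (1046 to 1080). The remaining 3 were Lamp2 in L_O replicate 1 at 1013 CPM (955 to 957), Tpp1 in H_C replicate 1 at 577 CPM (562 to 564) and Tfeb in L_O replicate 2 at 69.0 CPM (63.9 to 64.5).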

How the results depend on the processing

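In both ox-LDL comparisons, Atp6v0d2, Gm2a, Gpnmb, Hexa, Lamp2, Man2b1, Mitf and Tfeb were lower and Neu1 and Scarb2 higher under every alternative that was run. The numbers of members called in L_O minus L_C were 5 higher with upper-quartile factors, and 6 higher and 9 lower with no scaling beyond library totals; the fit of only the 8 libraries called 3 higher and 10 lower, beside 8.50% and 11.9% of all tested entries. In H_O minus H_C, 5 were higher with no scaling and in the fit of only the 8 libraries. In H_C minus L_C, 4 were higher with upper-quartile factors, no scaling, the 1 CPM filter and DESeq2, 2 were lower with no scaling, and the 8-library fit called 1 in all, which was higher, and 0 lower. In H_O minus L_O, DESeq2 called 8 (4 lower), the 8-library fit 10 (7 lower), and 1 was lower with no filter. The shares of all tested entries in H_O minus L_O were 4.04% higher and 4.91% lower with DESeq2 and 5.58% and 7.01% in the 8-library fit. In the 8-library fits of H_O minus H_C they were 14.3% and 15.0%, and of H_C minus L_C 2.63% and 4.43%. In H_C minus L_C the share called higher was 6.26% with upper-quartile factors, 6.85% with no scaling, 6.74% with the 1 CPM filter and 6.42% with DESeq2. The share called lower there was 6.22% with no scaling. In L_O minus L_C 13.5% were higher with upper-quartile factors, and in H_O minus L_O 2.68% were lower with no filter. Leaving out 1 library gave 14 to 21 calls in L_O minus L_C (3 to 6 higher, 11 to 15 lower) and 14 to 16 in H_O minus H_C (2 higher, 12 to 14 lower). It gave 3 to 15 calls in H_C minus L_C (1 to 7 higher, 1 to 8 lower), 2 to 4 in H_O minus L_O (1 to 3 higher, 1 to 2 lower) and 0 in the interaction. No member that passed the test in a comparison changed sign there under any alternative run, over 160 values (32 members in 5 contrasts), while 48 values that did not pass changed sign under at least 1, most often with no scaling or without L_C replicate 4. Among the 63 values followed one by one, those that changed sign were Atp6v1a in L_O minus L_C, at 0.063 with no scaling and -0.077 (without L_C replicate 4) to 0.016 (without L_C replicate 1), and Ppt1 in H_C minus L_C, at -0.104 to 0.037 (without L_C replicate 4). Without L_C replicate 4, Tpp1 (-0.03 to 0.10) and Tfe3 (-0.07 to 0.03) in L_O minus L_C, and in H_C minus L_C Tpp1 (-0.05 to 0.08), Gpnmb (-0.01 to 0.11), Manba (0.03 to -0.04), Atp6v1b2 (0.04 to -0.04), Atp6v1h (0.08 to -0.02), Mcoln1 (-0.01 to 0.07) and Atp6ap1 (-0.0040 to 0.06) changed sign too. In the interaction, leaving out that library changed the sign of Atp6ap1, Atp6v0d1, Gaa, Gpnmb, Gusb, Lamp1, Mcoln1, Naglu, Scarb2, Smpd1 and Tpp1. None of these members passed the interaction test. The cause of these changes was not tested.

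Correlations between same-numbered libraries, in their deviations from group means, were -0.164 to 0.0380. Such weak correlations cannot show whether replicate numbers pair the samples, so pairing stayed unknown. With the replicate number as a block, 17 members were called in L_O minus L_C (3 higher, 14 lower), 16 in H_O minus H_C (2 higher, 14 lower), 8 in H_C minus L_C (3 higher, 5 lower), 5 in H_O minus L_O (3 higher, 2 lower) and 0 in the interaction. All tested entries were then higher in 11.8% and lower in 13.3% of cases in L_O minus L_C, and in 9.97% and 11.3% in H_O minus H_C. The shares were 4.83% and 7.23% in H_C minus L_C, and 2.43% and 3.11% in H_O minus L_O. In most cases a library correlated best with one of another number, and always so in L_O minus L_C.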
